A study of Mus musculus with 6 samples.

Results

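The 60 genes described here encode the Wnt signalling pathway in the embryonic mouse midbrain, and they were followed in midbrain tissue from which Lmx1b had been removed in Pitx3-positive neurons. They were taken from a fixed list of symbols matched to the 26852 genes of the deposited table, and comprise 15 ligands (without Wnt1), 15 receptors, 9 secreted antagonists, 9 genes of the R-spondin axis, 7 intracellular components and 5 target and feedback genes. All 60 were found, and 54 of them had a mean normalized count of at least 10 and were tested. Total RNA came from dissected E14.5 midbrain of C57Bl/6 embryos. The Lmx1b cKO carried Lmx1b fl/fl with Pitx3-Cre and the control carried Lmx1b wt/wt with Pitx3-Cre, so both groups carry the Cre. There were 3 libraries per genotype, each made from 2 pooled embryos out of 4 litters. Pitx3-Cre acts in post-mitotic mesodiencephalic dopaminergic (mdDA) neurons, which are a minor population of the midbrain, whereas most Wnt pathway genes are also used by progenitors, other neurons and vessels of the tissue. In such bulk RNA, fewer cells of a type and less RNA per cell cannot be told apart.

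Wnt proteins are secreted lipid-modified ligands that bind Frizzled receptors. In the canonical branch they engage the co-receptors LRP5 and LRP6, which stops the degradation of beta-catenin by the complex of AXIN, APC and GSK3, and beta-catenin then activates target genes with TCF/LEF factors. Other branches run through ROR, RYK and planar polarity proteins. In the ventral midbrain, Wnt ligands are known to act on the patterning, proliferation and differentiation of mdDA progenitors, and WNT7A and WNT7B from neural cells guide the growth of brain vessels.

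The table gives the mean of each group, in read counts divided by the size factor of each library. The reads of each library were recovered from these means as whole numbers, which gave between 27136893 and 32836255 reads per library. The search tells the genotype of a library but not its sample number. The letters a, b and c stand for the 3 libraries of each genotype, in falling order of size factor. Lmx1b itself had a mean normalized count of 1371 ± 102 in the cKO and 1398 ± 66.6 in the control (SD, n = 3), so its total in this tissue does not check the labels. Of the genes the study examined, En1, a midbrain homeobox gene, had 940, 1058 and 1147 in the cKO and 1277, 1326 and 1540 in the control (log2 fold change -0.40, 95% interval -0.60 to -0.19), and Aldh1a1, a retinoic acid enzyme of a subset of mdDA neurons, had 981, 672 and 816 against 337, 554 and 439 (log2 fold change 0.92, 95% interval 0.54 to 1.31). The groups overlapped for neither. The summed level of 10 mdDA neuron markers was between 10213 and 10381 in the cKO and between 10239 and 12031 in the control. Of these markers, 4 separated the groups, as 7.57% of all tested genes did, with Ddc, Pitx3 and Nr4a2 lower (log2 fold changes -0.24, -0.41 and -0.08) and Drd2 higher (0.28) in the cKO. The 7 hindbrain Hox genes together stayed at or below 6.56 in every library. Single libraries stood apart in other markers. cKO c had a summed level of 15183 over 16 markers of fibroblasts, bone and mesenchyme, against 1133 to 1314 in the controls. cKO a had 2836 and cKO b 1173. Of these markers, 3 (Col1a1, Col3a1 and Lum) were higher in all cKO libraries, as 3.88% of all tested genes were. In cKO b this was narrow, with 14 reads of Col1a1 against 10 to 12 in the controls and 3 of Lum against 0 to 2. cKO b had the highest value for 5 of 7 forebrain markers. Its sum was 7169, against 5021 to 5645 in the controls and 5623 and 5994 in cKO a and cKO c. Of the 7, 2 (Dlx1 and Emx2) were higher in all cKO libraries, where the share over all tested genes was again 3.88%. The summed level of 10 cycling cell markers was highest in control a, with 7337, and between 4142 and 6091 in the other libraries.

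Upstream sequence was available for 41 of the 60 genes, from RefSeq on GRCm38.p6, as 50 windows of 250 bases before a transcription start. These windows had a median GC content of 65.2% and 18.5 CpG dinucleotides, where all 32851 windows of the table had 52.4% and 6. The sequences of 6 genes are shown, without bases that lie inside the GENCODE M21 gene. Wnt2 and Fzd4 were lower in every cKO library than in every control library, Axin2 and Lef1 varied together across the libraries, and Wnt11 and Wnt8b hold a motif. Capitals mark the TCF/LEF motif CTTTGAT on either strand, or the motif TAATTA, which LIM homeodomain factors such as LMX1B are known to bind and which reads the same on both strands. The motifs were searched separately, and no match of one overlapped a match of the other.
Wnt2, chr6:18030586-18030695, minus strand: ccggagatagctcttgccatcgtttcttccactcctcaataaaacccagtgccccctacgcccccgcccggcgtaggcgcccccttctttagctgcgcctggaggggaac
Fzd4, chr7:89404116-89404354, plus strand: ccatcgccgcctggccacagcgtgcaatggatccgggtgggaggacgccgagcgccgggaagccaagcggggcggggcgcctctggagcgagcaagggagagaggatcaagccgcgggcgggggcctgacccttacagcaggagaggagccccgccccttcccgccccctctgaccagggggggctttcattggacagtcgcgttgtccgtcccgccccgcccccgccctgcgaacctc
Axin2, chr11:108920099-108920348, plus strand: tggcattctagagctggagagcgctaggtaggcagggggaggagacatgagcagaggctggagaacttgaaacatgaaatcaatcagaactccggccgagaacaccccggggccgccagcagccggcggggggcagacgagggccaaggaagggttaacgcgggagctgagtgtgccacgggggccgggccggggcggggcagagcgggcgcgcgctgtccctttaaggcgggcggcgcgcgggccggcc
Lef1, chr3:131110047-131110296, plus strand: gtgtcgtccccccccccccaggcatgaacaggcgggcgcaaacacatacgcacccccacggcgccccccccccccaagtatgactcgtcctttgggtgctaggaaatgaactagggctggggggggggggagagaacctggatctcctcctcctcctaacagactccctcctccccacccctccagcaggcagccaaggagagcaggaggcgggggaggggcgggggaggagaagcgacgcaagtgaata
Wnt11, chr7:98834862-98835111, plus strand: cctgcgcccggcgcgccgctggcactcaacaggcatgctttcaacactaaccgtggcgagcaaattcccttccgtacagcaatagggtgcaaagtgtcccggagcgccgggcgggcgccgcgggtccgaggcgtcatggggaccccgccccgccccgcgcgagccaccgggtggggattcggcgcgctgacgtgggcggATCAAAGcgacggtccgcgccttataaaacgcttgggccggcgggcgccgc
Wnt8b, chr19:44493222-44493471, plus strand: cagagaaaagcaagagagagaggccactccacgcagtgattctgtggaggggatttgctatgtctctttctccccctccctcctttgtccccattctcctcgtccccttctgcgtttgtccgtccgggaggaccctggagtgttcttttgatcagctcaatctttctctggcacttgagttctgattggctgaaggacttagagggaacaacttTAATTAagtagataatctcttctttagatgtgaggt
The TCF/LEF motif was present in 2 of 50 windows of the pathway genes (4%), those of Wnt11 and Wnt5b, and in 3.21% of all windows. TAATTA was present in 1 window (2%), that of Wnt8b, and in 4.84% of all windows. The windows of Wnt2, Fzd4, Axin2 and Lef1 shown above hold neither motif.

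Among the 60 genes, the highest levels were those of 3 intracellular components. Some of the further pathway genes described below lay above the second of them, such as Apc2 with 2514 per kilobase of exon. Per kilobase of exon, and averaged over the 6 libraries, Ctnnb1 (beta-catenin) had a normalized count of 5681, followed by Apc with 1286 and Gsk3b with 1238. Dvl1, a Dishevelled adaptor, had 809, and its range overlapped with that of the receptor Fzd1. Apc and Gsk3b had overlapping ranges over the libraries, 1188 to 1334 and 1211 to 1279, and Ctnnb1 lay above both in every library. Among the receptors, Fzd1 was highest with 792 per kilobase, then Ryk with 400 and Lrp6 with 235, and the ranges of these 3 did not overlap. Fzd2, Fzd3, Fzd7 and Fzd9 formed a group between 144 and 165 per kilobase with overlapping ranges. Lrp5, the paralog of Lrp6, with 46.1 per kilobase, lay below Lrp6 in every library.

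Among the ligands, Wnt7b, Wnt7a and Wnt5a were highest. Wnt7b had 340 per kilobase, Wnt7a 225 and Wnt5a 187. The range of Wnt7b over the 6 libraries, 261.3 to 424.7, lay above that of Wnt7a, 196.4 to 248.9, which overlapped with that of Wnt5a, 166 to 225. Wnt8b (112) and Wnt3 (87.1) followed. The antagonists Sfrp1 (396) and Sfrp2 (343), which bind Wnt proteins outside the cell, had overlapping ranges at the level of the highest ligand, and Dkk3, a divergent Dickkopf protein, had 217. In the R-spondin axis, the receptor Lgr4 had 228 per kilobase, against 12.6 for Lgr5 and 6.47 for Lgr6. The ligand Rspo2 had 73.3 per kilobase and the membrane ubiquitin ligase Znrf3 60.4, while its paralog Rnf43 had 1.59. Of the target and feedback genes, Axin2 (208) and Nkd1 (204) did not differ beyond their ranges, Lef1 had 92.2, Tcf7 36.6 and Notum 5.81. Wnt2, Wnt3a, Wnt6, Wnt10a, Wnt16 and Rspo4 had at most 1.28 per kilobase.

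**Figure D1:**
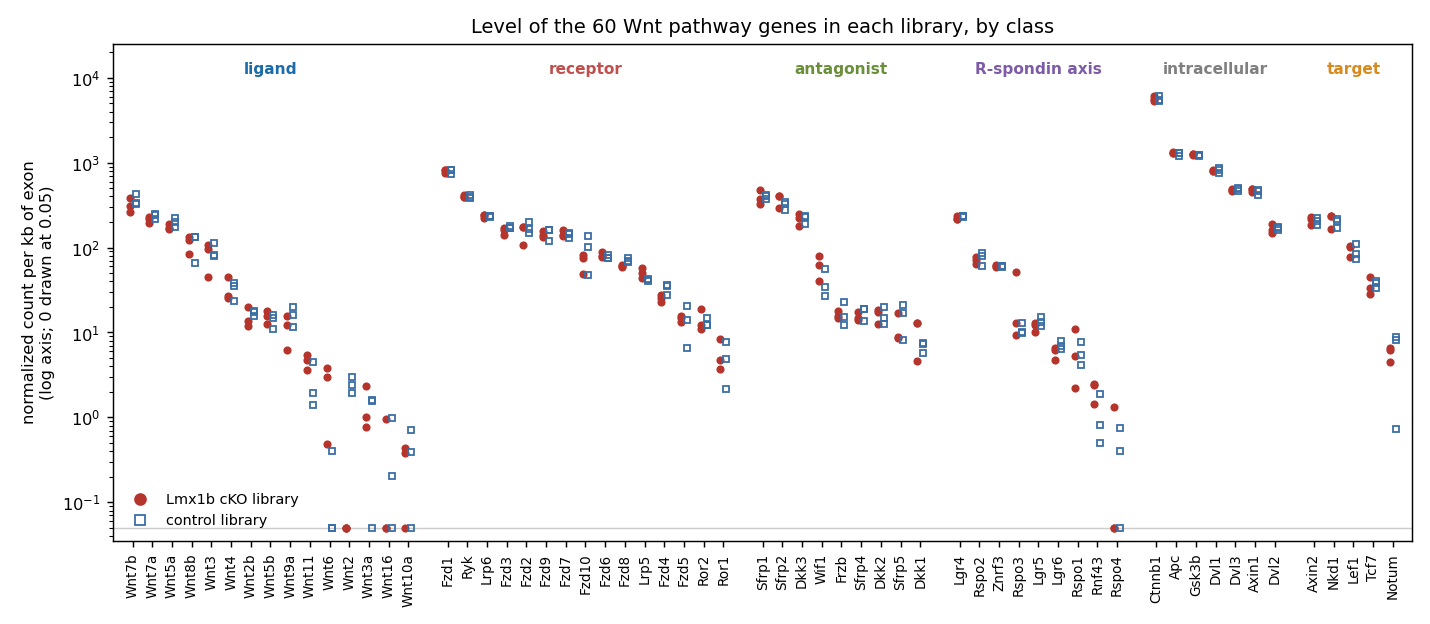
Normalized count per kilobase of exon (log axis) of the 60 Wnt pathway genes, grouped by class and ordered by level, with 1 filled circle per cKO library and 1 open square per control library; a count of 0 is drawn at 0.05. Ctnnb1 is the highest gene at 5333 to 6153, and the 3 cKO points of Wnt2 lie at 0.

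No gene of the pathway passed the test after adjustment. In the limma fit, the adjusted p-value was under 0.05 for 0 of 17133 genes (0%), and each of the 54 tested Wnt genes had an adjusted p of 1. At an unadjusted p-value under 0.05, which 472 of the 17133 genes met (2.75%), 2 of the 54 Wnt genes (3.7%) were found, Fzd4 lower and Lrp5 higher in the cKO. Over all genes, 1.61% met this rule with a lower and 1.15% with a higher level in the cKO. The median log2 fold change of the 54 genes was 0.007, beside 0.001 over all genes. Of the 54, 28 had a positive and 26 a negative value, and 6 (11.1%) were above 0.5 in size, beside 6.43% of all genes.

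The groups of 5 tested Wnt genes (9.26%) did not overlap, in that the 3 cKO values were all above or all below the 3 control values, and 7.57% of all tested genes did so. Fzd3, Fzd4 and Fzd8 were lower, where the share over all genes was 3.69%, and Lrp5 and Gsk3b were higher, where it was 3.88%. For each of these, the exact permutation test gave p = 0.1 (two-sided), the smallest value that 3 libraries against 3 allow. Of these 5 genes, 4 encode receptors, out of 15 receptors tested. Wnt2 and Wnt6 also separated the groups, at levels too low for the test.

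**Figure D2:**
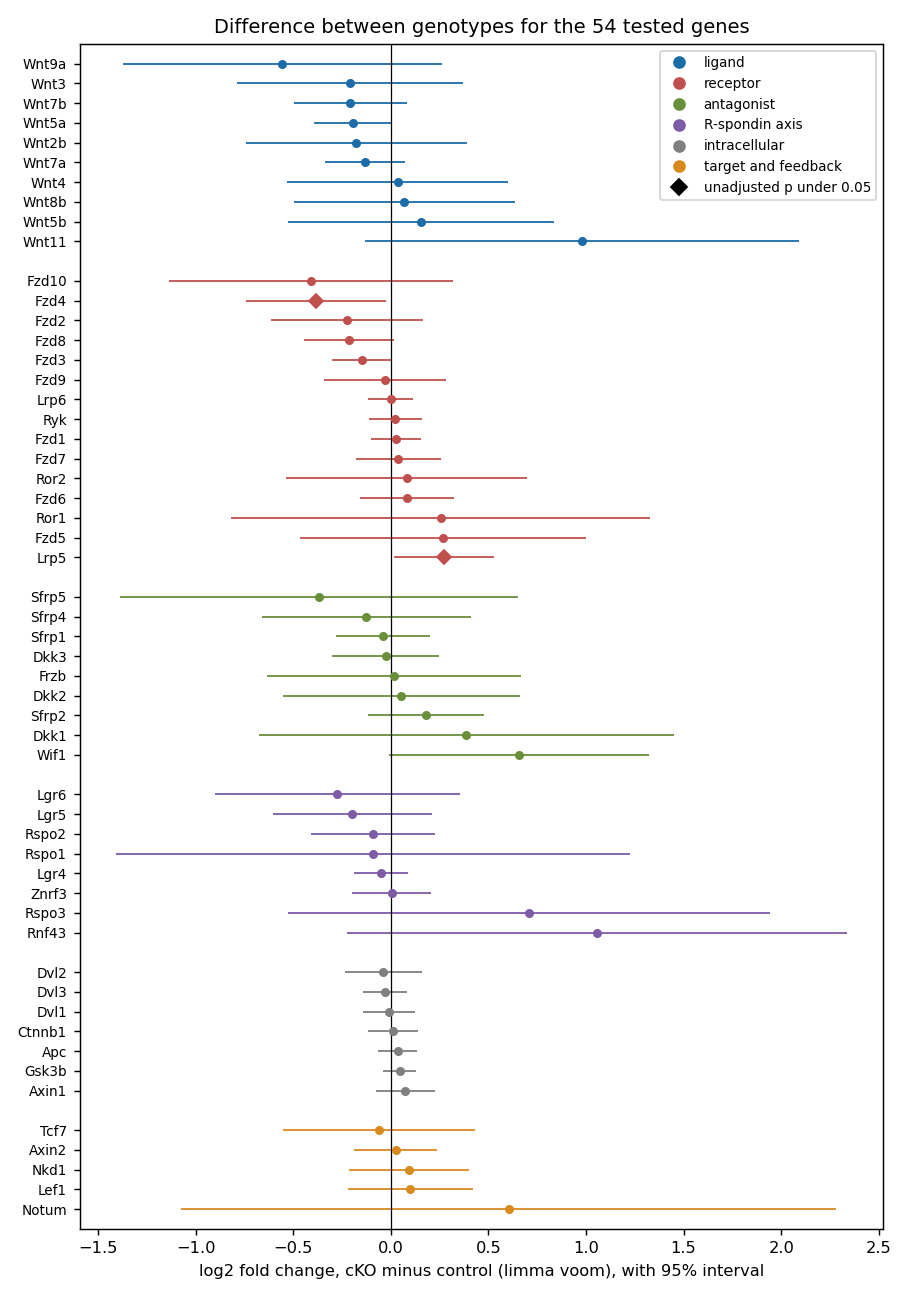
Log2 fold change (cKO minus control, limma) of the 54 tested Wnt pathway genes by class, with 95% intervals as bars and diamonds for an unadjusted p-value under 0.05. The intervals of Fzd4 (-0.74 to -0.03) and Lrp5 (0.02 to 0.53) lie on one side of 0, and the values of the 7 intracellular components lie between -0.04 and 0.07.

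The ligands had a median log2 fold change of -0.16 over the 10 tested, of which 6 were negative and 4 positive. The median was -0.09 without cKO b or cKO c. The 3 highest were all lower on average in the cKO. Wnt5a, which acts mainly through ROR and RYK receptors and is known to promote mdDA differentiation, had normalized counts of 1322, 1295 and 1471 in cKO a, b and c and 1560, 1379 and 1758 in control a, b and c. Only control b lay within the cKO range. The difference on the log2 scale was -0.19 (standard error 0.091, 95% interval -0.39 to 0.01, adjusted p = 1). It was -0.11 without control c, and it met the unadjusted threshold without cKO c (-0.25) or control b (-0.28), and with all libraries by limma-trend with a pseudocount of 5 (-0.20) or with library quality weights (-0.23).

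Wnt7a had 623, 724 and 697 normalized counts in the cKO and 688, 766 and 790 in the control, or a log2 difference of -0.13 (standard error 0.094, 95% interval -0.34 to 0.07). Wnt7b had 1280, 1887 and 1515 in the cKO and 2080, 1631 and 1608 in the control, or a log2 difference of -0.21 (standard error 0.13, 95% interval -0.50 to 0.08). The groups overlapped for both. Without cKO a, the values were -0.07 for Wnt7a and -0.06 for Wnt7b. Wnt7b was also at -0.08 without control a, and at -0.35, under the unadjusted threshold, without cKO b. Reck and Adgra2, which form the receptor complex for these ligands on endothelial cells, had log2 fold changes of -0.02 (95% interval -0.23 to 0.19) and 0.12 (95% interval -0.09 to 0.34). Adgra2 had 451, 451 and 470 in the cKO and 426, 399 and 435 in the control, so that its groups did not overlap. The summed level of 10 endothelial markers was between 6981 and 7285 in the cKO and between 6668 and 7338 in the control.

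Wnt2 (ENSMUSG00000010797, chromosome 6 of GRCm38, 17988940 to 18030585), a canonical ligand known to act on mdDA progenitors, had 0 reads in all 3 cKO libraries and 5, 7 and 5 reads in control a, b and c. This count of 0 allows up to 3 reads over the cKO group, so that Wnt2 was at least 5.37-fold lower in the cKO at this floor, with the control reads taken as counted. Of 1720 genes with 12 to 24 reads in all, 18 (1.05%) had 0 reads in every library of a group, and Wnt2 is among them. Without the minimum of 10, limma placed Wnt2 under the unadjusted threshold, with an adjusted p of 0.982. Wnt6 went the other way, with 9, 1 and 6 reads in the cKO and 1, 0 and 0 in the control, a ratio of 16.9 with a 95% counting interval of 2.62 to 707 (adjusted p = 0.982 in limma without the minimum). Groups that do not overlap were found for 8.88% of the 5099 genes with a mean between 1 and 10. The separation of Wnt6 is narrow, since cKO b and control a both had 1 read and differ only in their size factors.

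The other low ligands did not separate. Wnt3a, the canonical ligand of the dorsal midline, had 11 reads in the cKO libraries together and 9 in the controls, Wnt10a 2 and 3, and Wnt16 4 and 5. Wnt11, which signals without beta-catenin in many tissues, had normalized counts of 22.5, 14.8 and 19.5 in the cKO and 7.96, 5.76 and 18.4 in the control. Its log2 fold change of 0.98 had a standard error of 0.51 (95% interval -0.13 to 2.09), and control c lay within the cKO range. Without control c the value was 1.41, under the unadjusted threshold, and without control b it was 0.65. Wnt9a had 41.22, 51.77 and 20.56 in the cKO and 53.97, 67.24 and 38.88 in the control (log2 fold change -0.56, standard error 0.37, 95% interval -1.37 to 0.26), and its value was -0.19 without cKO c. For the remaining ligands, Wnt2b, Wnt3, Wnt4, Wnt5b and Wnt8b, the groups overlapped and the 95% interval of the difference included 0.

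Among the receptors, Fzd4, Fzd8 and Fzd3 were lower in all cKO libraries. Fzd4 (ENSMUSG00000049791, chromosome 7, 89404355 to 89413134), a receptor for Wnt proteins and for the vascular ligand Norrin, had normalized counts of 172, 185 and 153 in the cKO and 243, 187 and 239 in the control. The highest cKO library and the lowest control library were thus 185 and 187. The means were 170 ± 16.3 and 223 ± 31.1 (SD, n = 3), and the log2 fold change was -0.38 (standard error 0.16, 95% interval -0.74 to -0.03, adjusted p = 1). The value was -0.40 without cKO a, -0.31 without cKO c, -0.31 without control a and -0.34 without control c, and in these 4 fits it no longer met the unadjusted threshold. Control a, the highest library for Fzd4, Fzd2, Fzd3, Fzd10 and Wnt7b, was also the highest for the cycling cell markers, whose part in these levels was not tested. Of the 54 tested genes, control a was the highest library for 8, and each other library was so for 6 to 11.

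Fzd8 had 361, 355 and 372 normalized counts in the cKO and 413, 404 and 452 in the control. The cKO libraries lay close together, and the log2 fold change was -0.22 (standard error 0.10, 95% interval -0.45 to 0.01). With library quality weights it was -0.24 and met the unadjusted threshold. Fzd3, which acts in planar polarity and axon guidance, had 1811, 2156 and 2085 in the cKO and 2279, 2187 and 2187 in the control, or a log2 difference of -0.15 (standard error 0.070, 95% interval -0.30 to 0.01). Here cKO a was the lowest library and cKO b came closest to the controls. The value was -0.07 without cKO a, and -0.20, under the unadjusted threshold, without cKO b.

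Lrp5 (ENSMUSG00000024913, chromosome 19, 3584828 to 3686564), a co-receptor of the canonical branch, went the opposite way. It had 483, 432 and 564 normalized counts in the cKO and 405, 420 and 390 in the control, means of 493 ± 66.4 and 405 ± 14.9. The log2 fold change was 0.27 (standard error 0.12, 95% interval 0.02 to 0.53, adjusted p = 1). Its highest library was cKO c, the library with the highest value for 15 of 16 mesenchyme and bone markers, such as Col1a1 with 6097 against 532 in cKO a, 14.8 in cKO b and 10.6 to 11.5 in the controls. Without cKO c, the log2 fold change of Lrp5 was 0.18 and no longer met the unadjusted threshold. The same held without cKO a (0.28) and without control a (0.27), b (0.30) or c (0.25). The part of these cells in the level of Lrp5 was not tested. Lrp6 showed no such difference, with 3066, 3280 and 3288 in the cKO and 3234, 3149 and 3249 in the control and a log2 fold change of -0.001 (95% interval -0.12 to 0.11).

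Fzd4 and Lrp5 are partners in the receptor complex for Norrin, with the ligand Ndp and the tetraspanin Tspan12. Ndp had a mean normalized count of 181 ± 19.6 in the cKO and 190 ± 41.6 in the control (log2 fold change -0.07, 95% interval -0.48 to 0.33), and Tspan12 had 868 ± 82.0 and 879 ± 22.6 (log2 fold change -0.03, 95% interval -0.22 to 0.16). Fzd4 and Lrp5 were already known to separate the groups, in opposite directions, so a count over the 4 genes of the complex is no test. The groups of Ndp and Tspan12 overlapped.

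The other receptors overlapped between the groups. The highest of them, Fzd1, had 3197, 3414 and 3445 normalized counts in the cKO and 3074, 3397 and 3417 in the control (log2 fold change 0.03, 95% interval -0.10 to 0.16). Ryk, an atypical receptor without kinase activity, had 1785, 1909 and 1799 against 1891, 1721 and 1786 (log2 fold change 0.02, 95% interval -0.11 to 0.16). Fzd10 varied widely between libraries, with 248, 263 and 158 in the cKO and 442, 331 and 154 in the control. Its lowest libraries were cKO c and control c, and the log2 fold change was -0.41 (standard error 0.33, 95% interval -1.14 to 0.32). This value was -0.07 without control a, -0.19 without cKO c and -0.81, under the unadjusted threshold, without control c. Ror1 and Ror2, the receptors of the WNT5A branch, and the Frizzled genes Fzd2, Fzd5, Fzd6, Fzd7 and Fzd9 also overlapped, each with a 95% interval that included 0.

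**Figure D3:**
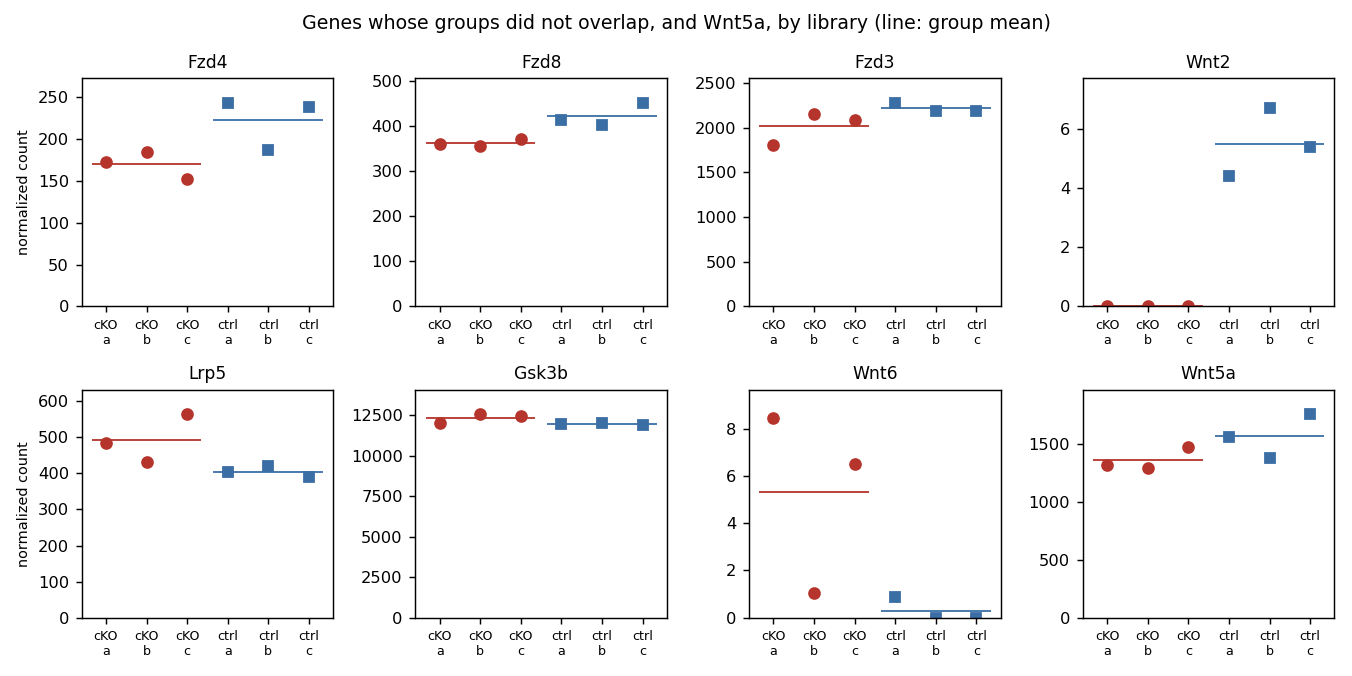
Normalized count per library of the 7 Wnt genes whose groups did not overlap, and of Wnt5a, with circles for cKO and squares for control libraries and a line at each group mean; each axis starts at 0. Fzd4, Fzd8, Fzd3 and Wnt2 are lower and Lrp5, Gsk3b and Wnt6 higher in all cKO libraries, and Wnt5a overlaps in control b only.

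None of the 9 secreted antagonists met the unadjusted rule, and 5 had a positive and 4 a negative log2 fold change. Wif1, which binds Wnt ligands directly, was nearest to it. It had 191, 99.3 and 152 normalized counts in the cKO and 82.3, 137 and 64.8 in the control, or a log2 difference of 0.66 (standard error 0.30, 95% interval -0.01 to 1.32). cKO b and control b crossed over, and the value was 0.91 without cKO b and 0.96 without control b, both under the unadjusted threshold. Without cKO a it was 0.43. With all libraries, Wif1 met this threshold by limma-trend with either pseudocount (0.65 and 0.63), with no minimum mean (0.66) and with library quality weights (0.71).

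Sfrp1 had 1430, 1653 and 2084 normalized counts in the cKO and 1775, 1645 and 1799 in the control, or a log2 difference of -0.04 (95% interval -0.28 to 0.20) with the highest and the lowest library both in the cKO. As for Lrp5, the highest library was cKO c. Sfrp2 had 627, 882 and 867 in the cKO and 709, 748 and 598 in the control (log2 fold change 0.18, 95% interval -0.12 to 0.48). Dkk3 had 602, 840 and 741 in the cKO and 782, 771 and 635 in the control (log2 fold change -0.03, 95% interval -0.30 to 0.25). For Sfrp2 and Dkk3, cKO a was the lowest cKO library. Without it, the value of Sfrp2 was 0.35, under the unadjusted threshold, and without cKO b, cKO c or control c it was between 0.09 and 0.11. Dkk1 and Dkk2, which block LRP5 and LRP6, and the Wnt-binding proteins Sfrp4, Sfrp5 and Frzb overlapped between the groups, with intervals that included 0. Dkk1 had 11.24, 31.70 and 31.39 in the cKO and 17.70, 18.25 and 14.04 in the control, with cKO a the lowest library. Its log2 fold change was 0.39 with all libraries, 0.90 without cKO a, under the unadjusted threshold, and 0.13 without cKO b.

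In the R-spondin axis, secreted R-spondins bind LGR receptors and neutralise ZNRF3 and RNF43, which remove Frizzled receptors from the membrane. A single library of Rspo3 stood apart. It had 29.0, 159 and 40.1 normalized counts in cKO a, b and c and 39.8, 30.7 and 31.3 in the control libraries. cKO b was thus more than 2 times as high as every other library, as was the case for 18 of the 17133 genes (0.105%). Any 1 library was so for 146 genes (0.852%). For Rspo3, the other 5 libraries lay between 29.0 and 40.1. The log2 fold change was 0.71 (standard error 0.56, 95% interval -0.53 to 1.94), and it was -0.01 without cKO b and 1.23, under the unadjusted threshold, without cKO a. The summed level of the 7 forebrain markers was also highest in cKO b. Of the 8 choroid plexus markers, 1 was highest in cKO b and 2 in cKO c. The 1 in cKO b was Ttr, with 6 reads there and 0 elsewhere. The 8 choroid plexus markers together were between 192 and 328 in the cKO and between 179 and 230 in the control, with the highest value in cKO c. Whether forebrain tissue contributed to Rspo3 in cKO b was not tested.

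The receptor Lgr4 had 1370, 1284 and 1289 normalized counts in the cKO and 1352, 1370 and 1370 in the control (log2 fold change -0.05, 95% interval -0.19 to 0.09). Znrf3 had 489, 466 and 477 against 484, 471 and 474, and its log2 fold change of 0.004 had an interval of -0.20 to 0.21. Neither gene separated the genotypes. Rspo2 had 327, 395 and 365 in the cKO and 445, 314 and 402 in the control (log2 fold change -0.09, 95% interval -0.41 to 0.22). Rnf43 had 9.37, 15.9 and 16.2 in the cKO and 5.31, 12.5 and 3.24 in the control, with control b above cKO a. Its log2 fold change of 1.06 was the largest of the 54 genes, with a standard error of 0.58 (95% interval -0.22 to 2.33). It was 1.54, under the unadjusted threshold, without control b, 1.29 and also under it with library quality weights, and 0.69 without control c. Lgr5, Lgr6 and Rspo1 overlapped between the groups, with intervals that included 0, and Rspo4 had 3 reads in each group.

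**Figure D4:**
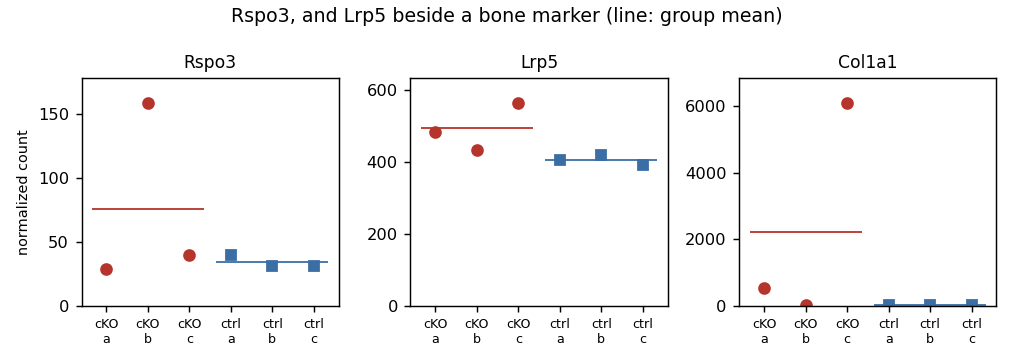
Normalized count per library of Rspo3, and of Lrp5 beside the bone and mesenchyme marker Col1a1, with circles for cKO and squares for control libraries and a line at each group mean. Rspo3 (159) is highest in cKO b, and Lrp5 (564) and Col1a1 (6097) in cKO c.

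The 7 intracellular components had log2 fold changes between -0.04 and 0.07. Gsk3b, the kinase that marks beta-catenin for degradation, had 12053, 12575 and 12448 normalized counts in the cKO and 11982, 12038 and 11906 in the control. Every cKO library was higher, by a log2 fold change of 0.04 (95% interval -0.04 to 0.13). Ctnnb1 had 27689, 31947 and 29282 in the cKO and 31506, 28647 and 27896 in the control (log2 fold change 0.01, 95% interval -0.12 to 0.14). Apc had 21498, 20752 and 20687 in the cKO and 21156, 21128 and 19142 in the control (log2 fold change 0.04, 95% interval -0.06 to 0.14). The groups of Ctnnb1 and Apc overlapped. The reads of these 3 genes, which exceed 10000 per library, came from a narrower search and are less certain than those of the other members. Axin1, a scaffold of the same complex, and Dvl1, Dvl2 and Dvl3, which pass the signal on from Frizzled, overlapped between the groups as well.

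Target and feedback genes are commonly used as readouts of canonical signalling. Axin2, the most widely used of them, had 1191, 1257 and 1015 normalized counts in the cKO and 1136, 1244 and 1016 in the control. The group ranges nearly coincided, and the log2 fold change of 0.03 had a 95% interval of -0.19 to 0.24. Lef1, a TCF/LEF factor and itself a target, had 899, 929 and 681 in the cKO and 736, 963 and 651 in the control (log2 fold change 0.10, 95% interval -0.22 to 0.42). Nkd1, an inhibitor of Dishevelled, had 1066, 1085 and 746 in the cKO and 934, 993 and 766 in the control (log2 fold change 0.09, 95% interval -0.21 to 0.40). Without cKO c, the value of Nkd1 was 0.26 and met the unadjusted threshold.

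These 3 genes varied in parallel across the libraries of both genotypes. Each was lowest in cKO c and control c and high in cKO b and control b. The letters follow the size factor, so a shared letter shows no pairing. cKO c and control c had the smallest size factors, 0.924 and 0.926. The part of library size in these levels was not tested. Over the 6 libraries, the Pearson correlation of log2(normalized count + 1) was 0.962 between Axin2 and Lef1, 0.958 between Axin2 and Nkd1 and 0.909 between Lef1 and Nkd1, with Spearman coefficients of 0.886, 0.943 and 0.771. The ligand Wnt3 came next for all 3 by Pearson coefficient, with 0.836, 0.772 and 0.817 for Axin2, Lef1 and Nkd1. Its Spearman coefficients were 0.943, 0.943 and 0.829, so that by rank Wnt3 was closer to Lef1 than Axin2 or Nkd1 was. Wnt3 had 296, 327 and 140 normalized counts in the cKO and 252, 347 and 246 in the control. The difference of Wnt3 was -0.21 on the log2 scale with all libraries and 0.15 without cKO c. These correlations were picked as the highest among the 54 genes and share the size factor of each library, so they are given as a description.

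Tcf7, another TCF/LEF factor, did not follow this pattern throughout. It had 119, 88.8 and 74.7 normalized counts in the cKO and 88.5, 105 and 102 in the control (log2 fold change -0.06, 95% interval -0.55 to 0.43), and was most like Wnt4 (Pearson 0.855), Wnt2b (0.799) and Lgr4 (0.796). Notum, a secreted enzyme that removes the lipid from Wnt proteins, had 14.99, 15.85 and 10.82 in the cKO and 1.770, 21.13 and 19.44 in the control. Its sign depended on control a, with a log2 fold change of 0.60 (95% interval -1.07 to 2.28) with and -0.54 without that library. Notum was most like Fzd9 (Pearson 0.843), Dvl1 (0.821) and Fzd1 (0.778), with Spearman coefficients of 0.886, 0.771 and 0.257.

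**Figure D5:**
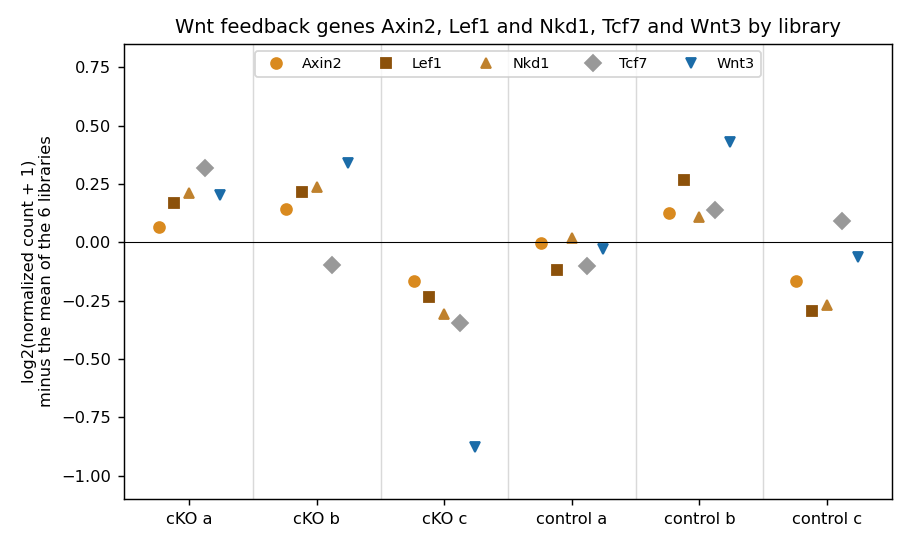
Level of Axin2, Lef1, Nkd1, Tcf7 and Wnt3 in each library, as log2(normalized count + 1) minus the mean of the gene over the 6 libraries. Axin2, Lef1 and Nkd1 lie below 0 in cKO c and control c and above 0 in cKO a, cKO b and control b.

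The rest of the pathway was examined in 62 further genes, including ligand secretion, kinases, nuclear cofactors and planar polarity, of which 58 were tested. At an unadjusted p-value under 0.05 there were 3 (5.17%), 1 higher and 2 lower in the cKO, beside 2.75% of all genes (1.15% higher and 1.61% lower), and none with an adjusted p-value under 0.05. The groups of 5 (8.62%) did not overlap, beside 7.57% of all genes, with Tle4, Csnk1e and Adgra2 higher and Daam2 and Tle3 lower. The mean of Csnk1e also exceeds 10000, so its reads came from the narrower search. Tle4, a Groucho corepressor that TCF/LEF factors recruit, had 4328, 4420 and 4616 normalized counts in the cKO and 4020, 4023 and 4072 in the control (log2 fold change 0.14, standard error 0.048, 95% interval 0.04 to 0.25). Without cKO c the value was 0.12 and no longer met the unadjusted threshold. Daam2, a formin that acts with Dishevelled, had 872, 1042 and 1093 in the cKO and 1142, 1194 and 1229 in the control (log2 fold change -0.26, standard error 0.089, 95% interval -0.45 to -0.06). Celsr1, a planar polarity cadherin, had 1239, 1566 and 1695 in the cKO and 1885, 1702 and 1618 in the control (log2 fold change -0.23, standard error 0.10, 95% interval -0.46 to -0.003). For Daam2 and Celsr1, cKO a was the lowest library, and without it the values were -0.15 and -0.09 and no longer met the unadjusted threshold. Celsr1 also no longer met it without control a (-0.17) or b (-0.25), with both limma-trend settings (-0.22), upper-quartile scaling (-0.23) or library quality weights (-0.16). The median log2 fold change of the 58 genes was 0.004, with 30 positive and 28 negative values.

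Reads from an overlapping gene could add to several of these values, because use of the strand in counting is not stated in the sources used here. Exons on the opposite strand overlap 29.4% of the exon length of Notum, 18.3% of Dvl2, 17.8% of Fzd5, 16.1% of Sfrp2, 14.6% of Ctnnb1, 13.7% of Lef1 and 13.1% of Rspo3, and less than 10% of Wnt5a, Wnt7b, Wnt11, Fzd6, Dvl1 and Axin2.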

How the data were processed

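The submitters' processing notes name TopHat 1.0.14, Bowtie2 2.1.0, HTSeq 0.6.1p1, DESeq 1.10.1 and the build GRCm38.p4. The authors deposited a table of mean signal over all libraries and per group, that is, read counts divided by a size factor per library. Its ratio, log2 ratio, p-value and rank columns hold the authors' own comparison and were not used. The 3 lines that name no gene hold 31.8% of the normalized counts. Whole reads per library were recovered by an integer search for 26808 genes (99.8%), with full search to a mean of 10000 and a restricted one to 36000. The search and the fit were tested on simulated data. The test was limma 3.58.1 on genes with a mean of at least 10 (voom weights, R 4.3.3, Benjamini-Hochberg adjustment over all 17133). Positive log2 values are higher in the cKO. Single genes were also compared by the exact permutation test. Exon lengths come from GENCODE M21. Counting intervals cover counting error only.

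The members and lists were chosen with earlier results of these data known. Genes given in every library were those with an unadjusted p under 0.05, groups that did not overlap, the 3 highest per kilobase in each class, and 1 library over 2 times every other, to which Wnt3, Wnt9a, Wnt11, Fzd10, Wif1, Dkk1, Rnf43, Tcf7 and Notum were added after their values were seen. Of the 63 further pathway genes listed, 1 (Cdx2) was not analysed here, and 1 marker gene is not reported here. Alternatives were limma-trend with pseudocounts of 0.5 and 5, recomputed size factors, upper-quartile scaling, minimum means of 50 and none, library quality weights and each library left out.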

Additional observations from a re-analysis of the deposited data

How the results depend on the processing

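The 472 genes with an unadjusted p-value under 0.05 became 976 with no minimum mean and between 343 and 651 with 1 library left out. After adjustment, 0 genes passed in every setting except without control a, where 3 did (range 0 to 3). The number of Wnt genes with an unadjusted p-value under 0.05 was 2, and it was 4 (7.41%, beside 2.80% of all genes in that fit) by limma-trend with a pseudocount of 5, 5 (8.33%, beside 3.64%) with no minimum, 6 (11.1%, beside 3.87%) with library quality weights and between 0 (without control a, beside 3.80%) and 5 (without cKO b, 9.26%, beside 2.95%) with 1 library left out. Fzd4 and Lrp5 were among them in all settings that kept the 6 libraries. Of the fits that left out 1 library, Fzd4 met the rule without cKO b or control b, and Lrp5 without cKO b. The median log2 fold change of the Wnt genes lay between -0.018 (without cKO b) and 0.0093 with 1 library left out. There were 5 tested Wnt genes whose groups did not overlap under the size factors of the table and 5 under recomputed ones.

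With 1 library left out, the sign turned for some genes, most of them near 0, and for Rspo3 and Notum, whose values with all libraries were 0.71 and 0.60. The log2 values were -0.026 to 0.061 for Fzd1, -0.019 to 0.033 for Lrp6, -0.0094 to 0.062 for Ryk, -0.42 to 0.15 for Wnt3, -0.14 to 0.11 for Dkk3, -0.18 to 0.094 for Sfrp1, -0.24 to 0.028 for Rspo2, -0.0059 to 1.23 for Rspo3, -0.015 to 0.021 for Znrf3, -0.011 to 0.060 for Apc, -0.044 to 0.064 for Ctnnb1, -0.044 to 0.11 for Axin2, -0.011 to 0.26 for Lef1, -0.26 to 0.086 for Tcf7, -0.0087 to 0.26 for Nkd1 and -0.54 to 1.20 for Notum. With library quality weights Dkk3 was at 0.063 and Lrp6 at 0.0037, and Lrp6 was at 0.0025 with upper-quartile scaling. The cause was not tested. En1, Aldh1a1, the marker genes and the genes not given in every library were not followed across the settings. No other gene that was followed turned its sign.

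No paired analysis was possible because the recovered libraries cannot be tied to the numbers 1 to 3 that the table gives the libraries of both genotypes. Genes under 10 normalized counts rest on few reads.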
